A study of Mus musculus with 6 samples.

Results

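The genes examined here are 10 immediate early genes, chosen by symbol from the 20654 genes of the count table: the Fos family members *Fos*, *Fosb*, *Fosl1* and *Fosl2*, the Jun family members *Jun*, *Junb* and *Jund*, and *Atf3*, *Egr1* and *Ier2*. All 10 were found in the table. They were read in RNA from muscle satellite cells (MuSCs), the stem cells of skeletal muscle, from 3 control libraries and another 3 labelled *Piezo1* cKO, called cKO-labelled libraries hereafter. *Piezo1* encodes an ion channel that opens under membrane tension and lets calcium into the cell. The question was whether genes known to respond to calcium and stretch differed between the groups.

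Both groups were on a C57BL/6 background. Controls are called wild type in the labels. In its gene set analysis of these data, the study writes *Pax7* CreERT2/+ for the group set against *Piezo1* cKO, with no *Piezo1* allele named. The *Piezo1* cKO mice were *Piezo1* flox/flox; *Pax7* CreERT2/+, in which tamoxifen activates Cre in cells that express *Pax7*. MuSCs were sorted as VCAM1-positive cells without CD31, CD45 and Sca1, and RNA was taken after 3 d in growth medium rich in serum and basic fibroblast growth factor. 4-hydroxytamoxifen was in the culture medium of both groups. The ages of the mice, and whether a library came from 1 mouse or several, are not given in the sources used here, and p-values measure the spread between these libraries.

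AP-1 is a family of dimeric transcription factors. A Fos protein pairs with a Jun protein, or Jun proteins pair with each other, through a leucine zipper, and the dimer binds DNA through an adjoining basic region. Immediate early genes are transcribed within minutes of a stimulus without new protein synthesis, largely through serum response factor and its Elk partners and, for calcium signals, through CREB, and their mRNAs are short lived. In MuSCs, several of them are known to be induced when cells leave quiescence and when muscle is dissociated.

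Total counts were 740936, 931168 and 891531 in the controls (replicates 1 to 3), and cKO-labelled libraries held 810096, 726378 and 769295. Counts are of unique molecular identifiers, so that 1 count stands for 1 cDNA molecule primed at a poly(A) tail. Levels are given as CPM, the counts in 1000000 counts of a library after TMM scaling, and because counts come from transcript ends they were not divided by gene length. A floor of 3 counts lay between 3.22 and 4.13 CPM of the raw totals. *Piezo1* itself had 11, 5 and 6 counts in control and 7, 12 and 9 in cKO-labelled libraries, and was thus not lower there (two-sided exact permutation test, p = 0.5). Every direction below therefore rests on the labels, and counts over a whole gene cannot tell a transcript without the floxed exons from an intact one.

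None of the 10 genes passed the threshold between the groups. Only 5 of them, *Jun*, *Junb*, *Ier2*, *Egr1* and *Fosl2*, had enough counts to pass the filter and be tested among 8551 genes, and 0 of these 5 had an adjusted p under 0.05 in edgeR's quasi-likelihood test, where 0.784% of all genes tested did. At an unadjusted p under 0.05 there was 1 of 5, *Egr1*, against 11.9% of all genes. *Egr1* was also the 1 gene of the 5 whose libraries did not overlap between the groups, against 16.5% of all genes (8.2% higher and 8.31% lower in cKO-labelled libraries). Other fits likewise called 0 of these 5, with 0.674% of genes called by DESeq2 (which gave *Fosl2* no adjusted p), 0.538% in the blocked edgeR fit (replicate number as a term) and 0.67% without a filter, where the other 5 were also at an adjusted p above 0.05 in edgeR. A log2 fold change above 0 was found for 3 of the 5 and for 50.2% of all genes. The median log2 fold change of the 5 genes was 0.056, and that of all genes tested was 0.0021. The other 5, *Fos*, *Fosb*, *Fosl1*, *Jund* and *Atf3*, held at most 14 counts in any library. The plot of levels by library shows all 10.

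**Figure D1:**
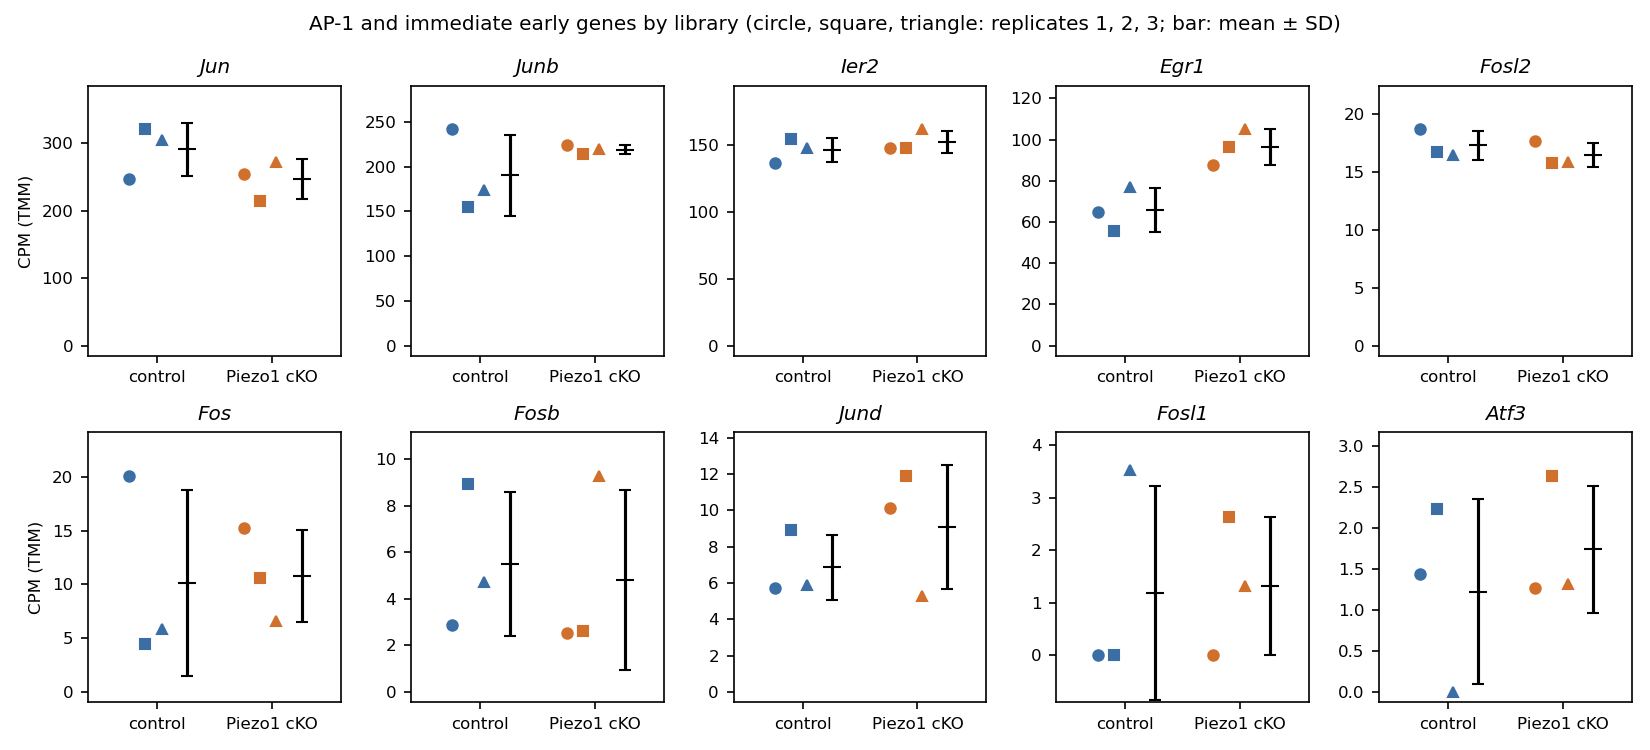
Levels of the 10 genes in CPM (vertical axes, a scale for each gene) in the 3 control libraries (blue) and the 3 cKO-labelled libraries (orange), with circles, squares and triangles for replicates 1, 2 and 3 and a black bar for mean ± SD. *Egr1* is the only tested gene whose groups do not overlap, from 55.8 to 76.8 CPM in control and from 87.5 to 105 CPM in cKO-labelled libraries.

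*Egr1* encodes a zinc finger transcription factor that is induced by serum, calcium and mechanical load, and that binds GC-rich sites. In GRCm38 the gene occupies 34859823 to 34864984 of chromosome 18, plus strand, with 2 exons. Its counts were 45, 50 and 65 in control and 69, 73 and 79 in cKO-labelled libraries, the latter all higher. In CPM these were 65.7 ± 10.5 (SD, n = 3) and 96.2 ± 8.61 (SD, n = 3). The log2 fold change was 0.55 (SE, the standard error, 0.18), or 1.46-fold with a 95% interval from 1.13 to 1.89, which is not adjusted for the number of genes. The unadjusted p was 0.00384 and the adjusted p 0.159 in edgeR, and 204 of the 8551 genes (2.39%) had a smaller p. DESeq2 gave an adjusted p of 0.496. An exact permutation test on CPM, two-sided, gave p = 0.1, which no 3 libraries against 3 can go below. *Egr1* was higher in cKO-labelled libraries by more than the SD of either group, but it failed the correction for the number of genes.

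*Ier2* encodes a small nuclear protein that is induced along with *Fos* and *Egr1*. It is a gene of 1 exon on chromosome 8 from 84661331 to 84662852 on the minus strand. It had 95, 139 and 125 counts in control and 117, 112 and 122 in cKO-labelled libraries. The levels of 146 ± 9.27 CPM and 153 ± 7.82 CPM (SD, n = 3 each) overlapped. The log2 fold change was 0.056 (SE 0.15, edgeR adjusted p = 0.930), and the 95% interval of the fold ran from 0.847 to 1.28. Control library 1 was the lowest in counts, but once scaled for its smaller total its level of 137 CPM stood close to the others.

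The Jun family encodes the partners that can form AP-1 dimers without a Fos protein. The coding transcripts of *Jun*, *Junb* and *Jund* each have 1 exon. *Jun* lies on chromosome 4 from 95049034 to 95052222 on the minus strand and was the most counted of the 10, with 172, 288 and 258 counts in control and 201, 162 and 206 in cKO-labelled libraries. Its level was 291 ± 38.8 CPM in control and 247 ± 30.2 CPM in cKO-labelled libraries (SD, n = 3 each). Control library 1, at 247 CPM, lay below 2 of the 3 cKO-labelled libraries, so the groups overlapped. The log2 fold change was -0.24 (SE 0.14, edgeR adjusted p = 0.497), and the 95% interval of the fold from 0.700 to 1.02 includes no change. With 1 library left out, the log2 fold change ranged from -0.34 (without control 1) to -0.15 (without cKO-labelled library 2).

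*Junb*, whose protein can oppose Jun at some promoters, lies on chromosome 8 from 84974484 to 84978718 on the minus strand. It had 168, 139 and 147 counts in control and 177, 162 and 166 in cKO-labelled libraries. The latter lay close together at 224, 214 and 220 CPM, whereas control spread over 242, 155 and 174 CPM. The means were 190 ± 45.6 CPM in control and 219 ± 5.21 CPM in cKO-labelled libraries (SD, n = 3 each). The highest *Junb* level of all 6 libraries was thus in control library 1, which was also the control library with the lowest *Jun*. The log2 fold change was 0.22 (SE 0.14, edgeR adjusted p = 0.576), and without control library 1 it was 0.42 (adjusted p = 0.211, edgeR). The coding transcript of *Junb* runs from 84976910 to 84978718. The last 351 bases of the annotated gene, outside that transcript, overlap *Prdx2* on the other strand, and whether the counting used strand is not stated. *Prdx2* had from 229 to 296 counts per library and a log2 fold change of -0.070 (adjusted p = 0.906, edgeR).

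*Jund*, whose protein is known to be less tied to growth stimuli than Jun, lies on chromosome 8 from 70698949 to 70700616 on the plus strand. It had 4, 8 and 5 counts in control and 8, 9 and 4 in cKO-labelled libraries, so that its libraries overlapped and lay little above the floor. Pooled, the 17 and 21 counts gave a rate ratio of 1.31 with an exact 95% interval from 0.658 to 2.64, from counting error alone. An antisense gene, *Gm11175*, covers 919 bases of *Jund* on the other strand. *Jun* likewise has an antisense gene, *Junos*, which had at most 6 counts in a library.

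The Fos family encodes the partners that need a Jun protein to bind DNA, and the main coding transcript of each of its 4 genes has 4 exons. *Fos* lies on chromosome 12 from 85473890 to 85477273 on the plus strand and is the classical serum- and calcium-induced gene. It had 14, 4 and 5 counts in control and 12, 8 and 5 in cKO-labelled libraries. The highest library of each group was replicate 1, at 20.1 and 15.2 CPM, and the remaining 4 libraries lay between 4.46 and 10.6 CPM. The means of 10.2 ± 8.66 and 10.8 ± 4.30 CPM (SD, n = 3 each) differed by less than either SD (two-sided exact permutation test, p = 0.9). In control, the SD was 85.2% of the mean, where counting error alone would give about 36.1%. Pooled over libraries, 23 and 25 counts gave a rate ratio of 1.15 (exact 95% interval from 0.628 to 2.12, counting error only).

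*Fosl2* lies on chromosome 5 from 32135801 to 32157842 on the plus strand and encodes a Fos protein that lacks the strong activation domain of Fos. It was the Fos gene with the most counts, 13, 15 and 14 in control and 14, 12 and 12 in cKO-labelled libraries. Its levels of 17.3 ± 1.20 and 16.5 ± 1.08 CPM (SD, n = 3 each) overlapped. The SD in control was 6.91% of the mean, less than the 26.7% that counting error would give. The log2 fold change was -0.062 (SE 0.35, edgeR adjusted p = 0.968), with a 95% interval of the fold from 0.588 to 1.56, and it turned to 0.012 when libraries were scaled by total counts only.

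*Fosb*, on chromosome 7 from 19302696 to 19310051 on the minus strand, had 2, 8 and 4 counts in control and 2, 2 and 7 in cKO-labelled libraries. *Fosl1*, on chromosome 19 from 5447547 to 5455946 on the plus strand, had 0, 0 and 3 counts in control and 0, 2 and 1 in cKO-labelled libraries. *Atf3*, a stress-induced factor that pairs with Jun proteins, lies on chromosome 1 from 191170296 to 191218039 on the minus strand. It had 1, 2 and 0 counts in control and 1, 2 and 1 in cKO-labelled libraries. *Fosl1* and *Atf3* were at or under the floor in every library, and no fold is given for them. *Fosb* overlapped, and its pooled rate ratio of 0.833 had an exact 95% interval from 0.342 to 1.97, which covers counting error only. *Fosl1* shares 2767 bases at its end with *Ccdc85b* on the other strand, which had from 61 to 126 counts.

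**Figure D2:**
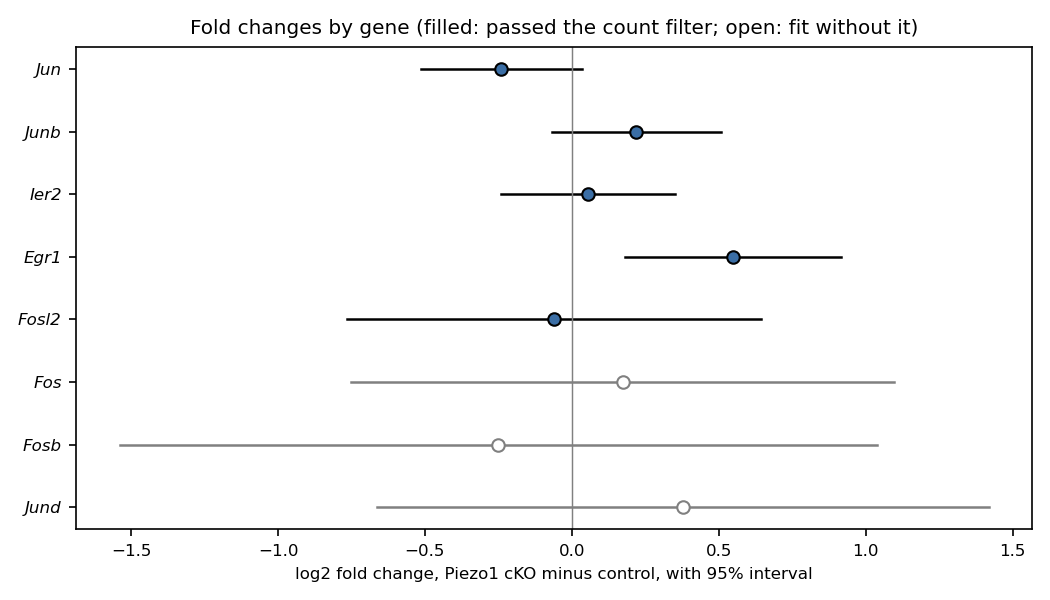
Log2 fold changes (horizontal axis, cKO-labelled minus control) with 95% intervals, filled for the 5 genes tested in edgeR and open for *Fos*, *Fosb* and *Jund*, whose values are from the fit without a filter on counts. The interval of *Egr1* lies above 0, from 0.18 to 0.92 before any adjustment, and the other 7 intervals include 0.

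For the 5 genes tested, the 95% intervals of the fold in edgeR, taken 1 gene at a time, lay between 0.588 and 1.89. They were wider in DESeq2 for *Egr1*, with an SE of 0.25 on the log2 scale, and for *Fosl2*, with 0.51. Across 15 alternative fits, *Egr1*, *Junb* and *Ier2* had a log2 fold change above 0 and *Jun* below 0 in all 15, while *Fosl2* was below 0 in 14. For *Egr1* the log2 fold change ranged from 0.44 to 0.68 and the adjusted p from 0.0889 to 0.496.

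**Figure D3:**
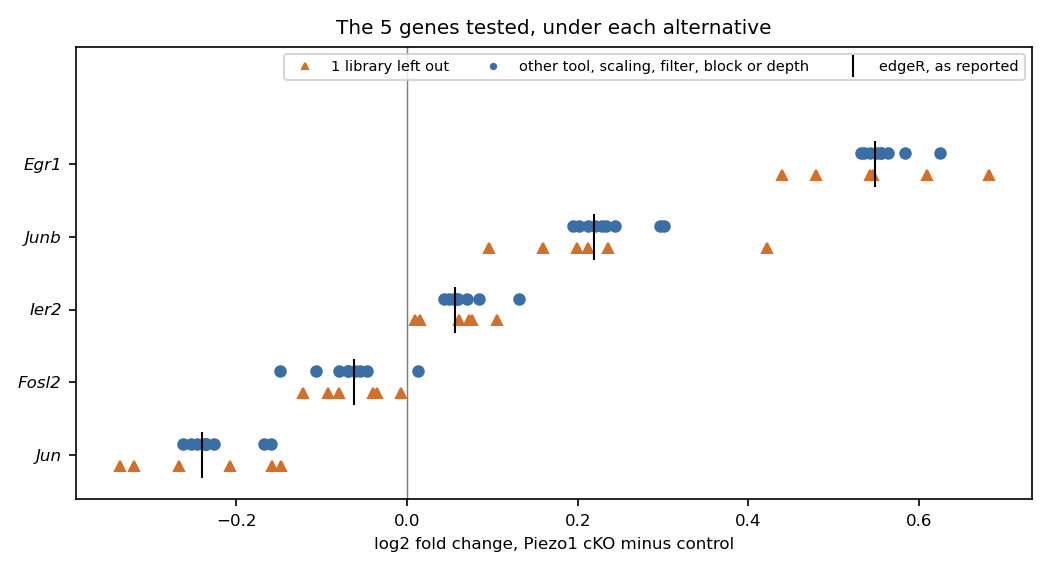
Log2 fold changes (horizontal axis, cKO-labelled minus control) of the 5 genes tested, with a black line for the edgeR value as reported, blue circles for other tools, scalings, filters, the replicate block and thinned libraries, and orange triangles for fits with 1 library left out. *Egr1* stays between 0.44 and 0.68, while *Junb* moves most when a library is left out, from 0.095 to 0.42.

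The 5 genes did not move as 1 group over the 6 libraries. Their summed level was 709, 704 and 719 CPM in control and 733, 688 and 775 CPM in cKO-labelled libraries, which overlapped. Pearson's r of log2 CPM over the 6 libraries, given as a description, ran from -0.778 between *Jun* and *Junb* to 0.516 between *Junb* and *Egr1* among their 10 pairs. The mean pattern of the 5, each scaled to the same spread, was most like that of *Arhgap42* (r = 0.979), *Wiz* (r = 0.971), *Cspp1* (r = 0.964), *Mrpl35* (r = 0.962) and *Ankrd17* (r = 0.946). These were the highest of 7425 genes over only 6 libraries that share their scaling, so values of this size are no finding.

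RefSeq promoters of GRCm38.p6, the 250 bases before to 50 after a start site, were matched for 7 of the 10 genes (*Fos*, *Fosb*, *Fosl2*, *Jun*, *Junb*, *Jund* and *Atf3*). They were searched on both strands for the letters that immediate early transcription is known to use, and what follows is a description. TGACG, the core of the element bound by CREB, the factor through which calcium reaches *Fos*, was in 4 of the 7, *Fos*, *Fosb*, *Junb* and *Atf3*, and in 23.0% of the 27025 genes with a promoter. TGACATCA, the element through which Jun and ATF proteins act on *Jun* itself, was in *Jun* alone and in 4.18% of all genes. The full element TGACGTCA, which contains the core (2.03% of all genes), the AP-1 site TGANTCA (8.97%), the EGR site GCGTGGGCG (0.707%) and the CArG box of serum response factor (1.81%) were in none of the 7 windows. Sites more than 250 bases before a start, and the promoters of *Fosl1*, *Egr1* and *Ier2*, were not searched. The windows thus cannot show that a gene lacks such a site. The matches nearest to the start, found by their letters alone, are printed below, and whether calcium or AP-1 acts through them was not tested. They are given 5′ to 3′ on the strand of the gene, with the matched letters in capitals (in *Atf3* the match is to the opposite strand).
*Fos*, chr12:85473809-85473843, plus strand: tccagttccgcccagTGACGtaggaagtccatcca
*Fosb*, chr7:19310086-19310120, minus strand: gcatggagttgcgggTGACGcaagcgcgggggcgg
*Junb*, chr8:84978835-84978869, minus strand: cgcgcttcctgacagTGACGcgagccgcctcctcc
*Atf3*, chr1:191183334-191183355, minus strand: ctattaatagcattaCGTCAgc
*Jun*, chr4:95052245-95052282, minus strand: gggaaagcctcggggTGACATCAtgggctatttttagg
The match begins 66 bases before the RefSeq start of *Fos*, 60 before that of *Fosb*, 106 before that of *Junb*, 7 before that of *Atf3* and 45 before that of *Jun*. In GENCODE the main coding transcript of *Atf3* starts at 191183340, the base where the match begins. The annotated *Atf3* gene extends upstream to 191218039, so this window is not its only possible promoter. Of the genes with the core, only *Junb* was tested, and it did not differ between the groups beyond the spread of control.

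Other genes of the pathway were read from lists written by hand, of which the AP-1 target list was written knowing that *Ccl2* is low in cKO-labelled libraries. Of 11 other basic leucine zipper genes whose proteins can pair with Fos or Jun, 6 were tested and 0 called in either direction, where 0.784% of all genes were called. None was at an unadjusted p under 0.05, against 11.9% of all genes, and DESeq2 called 0 of the 2 to which it gave an adjusted p. The median log2 fold change of the 6 was -0.082. The smallest p-values were those of *Atf2* (0.38), *Mafk* (0.41) and *Atf7* (-0.44), with adjusted p-values of 0.444, 0.581 and 0.620 in edgeR for these log2 fold changes. That of *Mafk* was 0.0049 without cKO-labelled library 1, and that of *Atf7* was -0.21 without control 2. *Atf2*, which encodes a stress-activated partner of Jun, measured 58.7 ± 5.31 CPM in control against 76.5 ± 11.9 CPM in cKO-labelled libraries (SD, n = 3 each), and its libraries overlapped.

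Among 50 other immediate early genes, 35 were tested and 1, *Ccn1*, was called, lower in cKO-labelled libraries, where 0.316% of all genes were called lower. At an unadjusted p under 0.05 there were 9 lower and 3 higher, against 5.78% and 6.14% of all genes. Their median log2 fold change was -0.072, with 13 above and 22 below 0. *Ccn1* encodes a secreted matricellular protein, a target of serum response factor and of YAP. Its counts were 404, 790 and 657 in control and 430, 282 and 352 in cKO-labelled libraries. In CPM it fell from 746 ± 152 to 461 ± 86.4 (SD, n = 3 each) without overlap, and the log2 fold change was -0.70 (SE 0.15, edgeR adjusted p = 0.00591, and 0.00641, DESeq2). Without cKO-labelled library 2 its adjusted p was 0.178 in edgeR, and without 3 it was 0.0529. *Ccn1* was also not called in the blocked edgeR fit (adjusted p = 0.0708) or after cyclic loess in limma-voom (adjusted p = 0.21).

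*Myc*, a growth factor-induced transcription factor gene, had 192, 334 and 253 counts in control and 194, 159 and 176 in cKO-labelled libraries. Its log2 fold change of -0.46 (SE 0.14) missed the threshold (adjusted p = 0.0917, edgeR), and the libraries did not overlap in CPM. It was called without cKO-labelled library 1 (-0.52, adjusted p = 0.0414, edgeR) and was -0.32 without control 2 (adjusted p = 0.451, edgeR). *Gadd45a*, a gene induced by stress and DNA damage, had 34, 24 and 41 counts in control and 48, 56 and 48 in cKO-labelled libraries, with a log2 fold change of 0.69 (SE 0.23, edgeR adjusted p = 0.142) that was 0.45 without control 2. *Zfp36l2* and *Phlda1*, named after their values were seen, were the other 2 at an unadjusted p under 0.05 and higher, with log2 fold changes of 0.81 and 0.44 (adjusted p = 0.162 and 0.230, edgeR). Lower at such a p, besides *Ccn1*, *Myc* and *Ccn2*, were *Dusp5* (-0.45), *Errfi1* (-0.38), *Plk2* (-0.38), *Hbegf* (-0.43), *Klf6* (-0.36) and *Nfkbia* (-0.35). These log2 fold changes had adjusted p-values from 0.182 to 0.320 in edgeR, and their genes too are named after the values were seen. Other genes of the EGR and NR4A families differed in depth. *Egr2* had from 2 to 7 counts, *Nr4a1* from 2 to 4, *Egr3* from 0 to 3 and *Nr4a2* from 27 to 66, and *Egr4* had 0 of all counts in every library, which allows up to 4.13 CPM. *Dusp1*, which encodes a phosphatase that ends kinase signalling and is induced with *Fos*, was measured well, with 63, 59 and 64 counts in control and 70, 63 and 57 in cKO-labelled libraries. Its log2 fold change was 0.11 (adjusted p = 0.892, edgeR). These last genes are also named after their values were seen.

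Of 38 genes of the kinases, calcium-dependent enzymes and transcription factors upstream of the immediate early genes, 28 were tested. Of these, edgeR called 0, where 0.784% of all genes were called, and DESeq2 called 0 of the 8 with an adjusted p there. At an unadjusted p under 0.05 there were 2 higher and 0 lower, against 6.14% and 5.78% of all genes. The median log2 fold change of the 28 was 0.071. The 2 at an unadjusted p under 0.05 were *Nfatc1*, which encodes a calcineurin-dependent factor (0.95, adjusted p = 0.203, edgeR), and *Mapk9*, which encodes the Jun kinase JNK2 (0.44, adjusted p = 0.416, edgeR). The value of *Mapk9* was 0.28 without control 1 and 0.78 without control 3. *Mapk8*, which encodes JNK1, followed with 0.74 (adjusted p = 0.427, edgeR). *Nfatc1* had 3, 13 and 17 counts in control and 17, 22 and 21 in cKO-labelled libraries, so that its difference leaned on control library 1.

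Of 23 known AP-1 target genes, 14 were tested and 2 were called, both lower in cKO-labelled libraries, of which *Ccl2* is reported here, and 0 were called higher, where 0.316% of all genes were called lower and 0.468% higher. The median log2 fold change was -0.17, with 4 above and 10 below 0, and 5 of the 14 had an unadjusted p under 0.05, all lower, against 5.78% of all genes. *Ccl2*, which encodes a chemokine for monocytes, had 48, 33 and 47 counts in control and 21, 17 and 14 in cKO-labelled libraries, and fell by 1.23 on the log2 scale (SE 0.27, edgeR adjusted p = 0.00635). *Plaur*, the urokinase receptor gene, had 237 ± 9.65 and 186 ± 9.85 CPM (SD, n = 3 each) without overlap, but its log2 fold change of -0.35 had an adjusted p of 0.251 in edgeR. *Ccnd1* (-0.32) and *Cd44* (-0.33), also at an unadjusted p under 0.05, are named after their values were seen (adjusted p = 0.317 and 0.278, edgeR). Without cKO-labelled library 2, the adjusted p was 0.159 for *Ccl2* in edgeR, without 3 it was 0.0867, and without control 1 it was 0.0630.

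**Figure D4:**
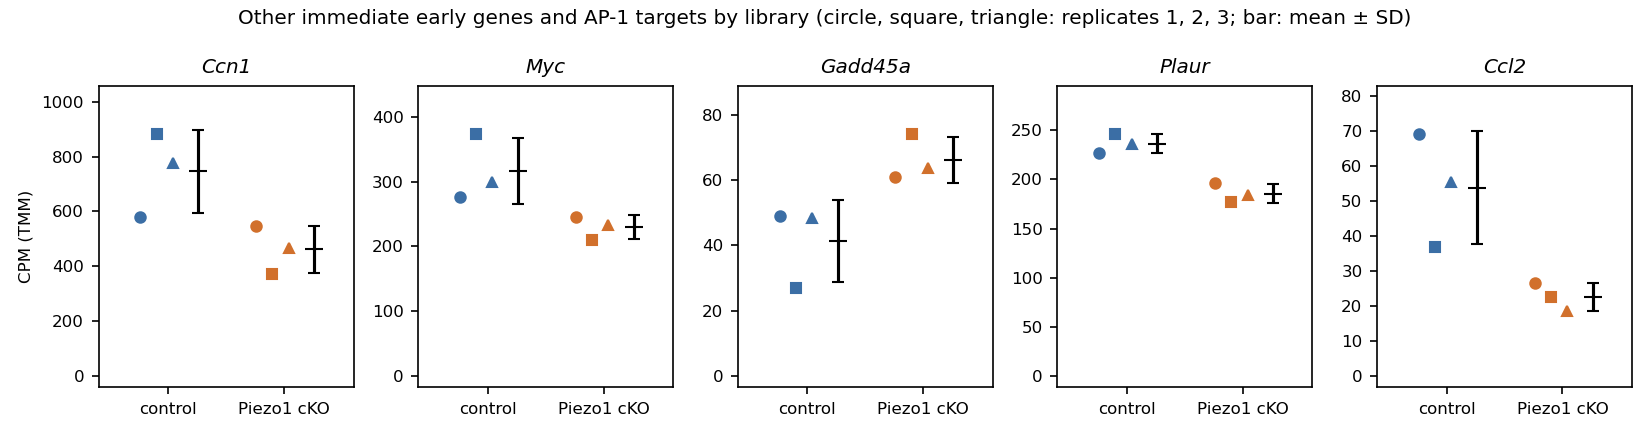
Levels in CPM (vertical axes, a scale for each gene) of 3 other immediate early genes (*Ccn1*, *Myc* and *Gadd45a*) and 2 AP-1 targets (*Plaur* and *Ccl2*) in the control libraries (blue) and cKO-labelled libraries (orange), with symbols for replicates 1, 2 and 3 and a black bar for mean ± SD. *Ccl2* falls from 53.8 to 22.5 CPM, and the groups of all 5 genes are apart.

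**Figure D5:**
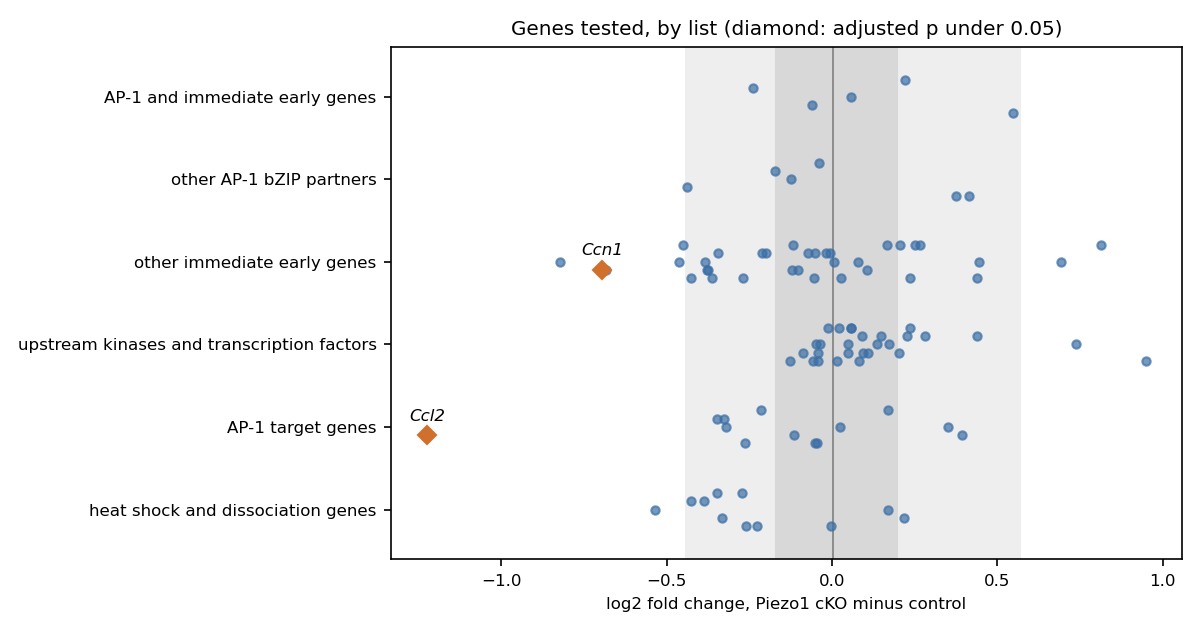
Log2 fold changes (horizontal axis, cKO-labelled minus control) of the tested genes in each list, as blue points, with orange diamonds for genes at an adjusted p under 0.05 in edgeR, and grey bands for the middle 50% and 90% of all genes tested. *Egr1*, at 0.55, is at the right edge of the outer band, which ends at 0.57, and the called genes *Ccn1* and *Ccl2* lie to the left of it (1 AP-1 target gene is not drawn).

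Heat shock genes, which are induced with immediate early genes when tissue is dissociated, had log2 fold changes below 0 in 9 of 11 tested, with a median of -0.27. Of these 11, 0 were called in edgeR, against 0.784% of all genes. The 12 genes of this list summed to 8948, 8768 and 8473 CPM in control and to 7643, 6030 and 7448 CPM in cKO-labelled libraries, without overlap, and *Hspa8* was the most abundant at 1620 CPM. At an unadjusted p under 0.05 there were 4, all lower, against 5.78% of all genes, and 8 of the 11 were lower without overlap, against 8.31%. Of all genes, 50.2% had a log2 fold change above 0. *Hsp90aa1*, a cytosolic chaperone gene, had a log2 fold change of -0.53 (adjusted p = 0.0567, edgeR, and 0.00829, DESeq2, which calls it), and it was called in 6 of 15 alternatives, among them limma-voom (0.0347) and edgeR without a filter (0.0147). *Hspd1* (-0.43, adjusted p = 0.162) and *Hsp90ab1* (-0.39, adjusted p = 0.241) followed in edgeR. Without cKO-labelled library 2 these were -0.27 and -0.24, after cyclic loess in limma-voom the value of *Hsp90ab1* was -0.15 and that of *Hsp90aa1* -0.31, and *Hspd1* was called without cKO-labelled library 1 (adjusted p = 0.0173, edgeR).

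The libraries carried the markers of MuSCs and myoblasts. *Myod1* had from 823 to 1225 counts, *Des* from 383 to 455, *Chrna1* from 917 to 1443 and *Pax7* from 5 to 26, and of the 10 markers only *Msc* was absent from some libraries. Of the 9 tested, edgeR called 0, against 0.784% of all genes. Of the 9, 3 were apart between the groups, against 16.5% of all genes. The same 3 had an unadjusted p under 0.05, against 11.9% of all genes. These were *Sdc4*, *Cdh15* and *Vcam1*, which encode surface proteins of MuSCs, with log2 fold changes of -0.53, 0.53 and -0.45 (adjusted p = 0.0609, 0.118 and 0.185, edgeR). *Sdc4* was called in 3 of the 6 fits with 1 library left out. It was also called in edgeR without a filter (adjusted p = 0.0327) and with at least 10 counts in every library (adjusted p = 0.0334). Without control 2 the value of *Sdc4* was -0.34 (adjusted p = 0.43, edgeR). *Cdh15* was called in 1 of the 6, without control 3 (0.78, adjusted p = 0.0101, edgeR). Differentiation markers stood higher in cKO-labelled libraries. The 6 in the table (*Myog*, *Mymk*, *Mymx*, *Myh3*, *Tnnt1* and *Acta1*) summed to 237, 88.1 and 206 CPM in control and 407, 1145 and 618 CPM in cKO-labelled libraries, of which *Acta1* was the most abundant at 188 CPM, and all 4 tested were apart between the groups, where 8.2% of all genes were apart and higher. Of these 4, 0 were called in edgeR and 1, *Acta1*, in DESeq2. At an unadjusted p under 0.05 in edgeR, 3 of the 4 were higher, against 6.14% of all genes. The edgeR fit without a filter called 3 of the 6, *Myh3* (adjusted p = 1.5e-08), *Mymk* (0.00419) and *Mymx* (0.0332), of which *Myh3* had 1, 0 and 0 counts in control and 9, 35 and 4 in cKO-labelled libraries. In RNA from many cells, fewer cells of a type and less RNA per cell cannot be told apart.

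Markers of other cells differed in level. The 5 endothelial markers in the table summed to at most 19.9 CPM, the most abundant being *Tek*, and the 4 Schwann markers to at most 8.63 CPM. The 3 haematopoietic markers in the table, led by *Cd68*, summed to 10.1, 27.9 and 13.0 CPM in control and 10.1, 14.5 and 10.6 CPM in cKO-labelled libraries, and control 2 alone had more than 1 count of *Lyz2*, at 11. The 7 fibro-adipogenic markers summed to 275, 392 and 457 CPM in control and 335, 338 and 315 CPM in cKO-labelled libraries. *Col3a1* was the most abundant of them, and the other 4 of the list (*Pdgfra*, *Ly6a*, *Lum* and *Col1a1*) had at most 17 counts in any library. *Ly6a*, the gene of Sca1, had 2, 2 and 3 counts in control and 5, 8 and 9 in cKO-labelled libraries, without overlap. In the fit without a filter its log2 fold change was 1.68 (adjusted p = 0.335, edgeR), while those of *Pdgfra*, *Lum* and *Col1a1* were below 0. Of the 3 fibro-adipogenic markers tested, 1, *Dcn*, was called (log2 fold change -2.17, adjusted p = 3.9e-04, edgeR), where 0.316% of all genes were called lower. Of the other 2, *Cd34* had a log2 fold change of -1.59 (adjusted p = 0.181, edgeR, and 8.2e-04, DESeq2, which calls it). *Cd34* is also known from mouse MuSCs, so its level cannot be assigned to fibro-adipogenic cells here. *Col3a1* had a log2 fold change of 0.41 (adjusted p = 0.265, edgeR), which without control 3 was 0.73 and called (adjusted p = 0.00477, edgeR). The 6 smooth muscle and pericyte markers, led by *Acta2* at 314 CPM, summed to 242, 105 and 479 CPM in control and 403, 557 and 416 CPM in cKO-labelled libraries. Of the 2 tested (*Acta2* 0.74, adjusted p = 0.760, and *Cspg4* 0.76, adjusted p = 0.143), 0 were called in edgeR, against 0.784% of all genes. *Rgs5*, *Myh11*, *Pdgfrb* and *Cnn1* had at most 10 counts, and the value of *Acta2* ranged from 0.31 (without control 2) to 1.58 (without control 3). *Rgs5* had 0, 0 and 1 counts in control and 2, 4 and 6 in cKO-labelled libraries, without overlap (adjusted p = 0.236 in the edgeR fit without a filter). *Myh11*, *Pdgfrb* and *Cnn1* overlapped. The part that any of these cells, or differentiation, had in the levels of *Egr1*, *Ccn1* and *Ccl2* was not tested.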

How the data were processed

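RNA of MuSCs was read in 6 libraries, 3 control and 3 labelled *Piezo1* cKO. The deposited values are UMI counts per gene, not normalised. Per the labels and the study's methods, the authors primed reverse transcription with barcoded oligo-dT, mapped reads to GRCm38 with STAR 2.7.9a, assigned them with featureCounts 2.0.1 and counted UMIs with UMI-tools 1.1.1. Settings for strand and for reads with several matches are not given in the sources used here.

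Counts were analysed in R 4.3.3 with edgeR 4.0.16 (filter with a minimum count of 10, TMM scaling, robust quasi-likelihood fit, Benjamini-Hochberg adjustment over 8551 genes, called at an adjusted p under 0.05), with no covariate. Standard errors were taken from the fold change and its F statistic. Genes under the filter were given as counts, with exact Poisson intervals of pooled rates at 95% confidence, and single levels were compared by exact permutation tests in SciPy 1.17.1. Depths were 726378 to 931168 counts, and floors and Poisson intervals cover counting error only. Coordinates are those of GENCODE M21 on GRCm38.

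Genes named from each list were those called and, where fewer than 3 were, those with the smallest p up to 3, any other being marked, save markers that check the cell type. Likeness was Pearson's r of log2 CPM among genes of at least 20 CPM outside the 10. The genes and lists were chosen with earlier results of these data known. On simulated counts of the same comparison with 8415 genes tested, edgeR recovered 72 of 99 tested genes changed 2-fold and 92 of 94 changed 4-fold, with 8 false calls. Alternatives were DESeq2 1.42.0, limma-voom in limma 3.58.1 with TMM or cyclic loess, other scalings and filters, thinned libraries, the replicate number as a block, an adjusted p under 0.1 and each library left out. *Npas4*, *Batf*, *Batf2* and some markers of other cells were not analysed here, and some single genes of the lists are not reported here.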

Additional observations from a re-analysis of the deposited data

How the results depend on the processing

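None of the 5 tested genes was called under any of 16 alternatives, though DESeq2 gave no adjusted p for *Fosl2*. The other 5 were not called in the fit without a filter, nor *Fos* in the 4 fits with 1 library left out where it passed the filter. The median log2 fold change of the 5 tested was 0.13 when libraries were scaled by total counts only, which moved the median of all genes by 0.075, and without 1 library it ranged from 0.0095 to 0.095. Over all genes, the 67 called became 27 in DESeq2, 22 after cyclic loess, 129 with no filter and 124 at an adjusted p under 0.1. Leaving out 1 library gave between 6 calls (cKO-labelled library 2 left out) and 174 (cKO-labelled library 1), with 29 for cKO-labelled library 3, 105 for control 1 and 131 for control 3. Scaled by total counts only, 73.1% of calls were higher in cKO-labelled libraries in place of 59.7%. Some values changed sign without being called: *Fosl2* to 0.012 by total counts only, and *Fos*, at 0.17 in the fit without a filter, to -0.19 without control 2 and -0.083 without control 3 (highest 0.43, without cKO-labelled library 3). *Ccn1* was not called after cyclic loess (adjusted p = 0.210). DESeq2 gave no adjusted p for *Ccl2*. The deviations of same-numbered libraries had correlations of -0.143, -0.203 and 0.0121, and each library correlated best with a library of another number. The main fit did not pair libraries by number. Whether same-numbered libraries were prepared together is not given in the sources used here, and these correlations cannot decide it. With the replicate block, 46 genes were called, *Egr1* had an adjusted p of 0.278 and *Ccn1* one of 0.0708 in edgeR. *Acta1*, at an adjusted p of 0.241 in edgeR, was called with the block (0.00418) and without cKO-labelled library 1 or 2. At these depths *Fos*, *Fosb*, *Fosl1*, *Jund* and *Atf3* could show only differences beyond their counting intervals.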

Other observations

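Of the genes on the 6 lists, 40 had counts but did not pass the filter, and 6 of them did not overlap between the groups, against 711 of all 10696 genes with counts under the filter. Those named here were chosen after their values were seen. *Il11*, a cytokine gene of the AP-1 target list, had 5, 2 and 1 counts in control and 7, 18 and 16 in cKO-labelled libraries. In the edgeR fit without a filter, the log2 fold change came to 2.38 (SE 0.53, adjusted p = 0.00276), opposite in direction to *Ccl2*. *Batf3*, *Socs3*, *Egr3* and *Pim1* had at most 4 counts in any library and an adjusted p of 0.725 each in that fit.

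*Ccn2*, which encodes a matricellular protein related to that of *Ccn1*, had 55, 107 and 155 counts in control and 52, 51 and 64 in cKO-labelled libraries. Its log2 fold change of -0.82 (adjusted p = 0.159, edgeR) was larger in size than that of *Ccn1*, but its libraries overlapped. *Ccn2* was called in the fit without a filter (-0.83, adjusted p = 0.00114, edgeR), as was *Ier3* of the same list (-0.69, adjusted p = 0.0287), where 0.67% of all genes were called. With the filter, *Ier3* was not called (adjusted p = 0.502, edgeR, and 0.434, DESeq2), and its libraries overlapped.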
